A study of Homo sapiens with 12 samples.

Results

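The collagen genes were taken as the rows whose gene name was COL, digits, the letter A and digits, with nothing after them. This gave 44 of the 58302 genes in the table, and 18 of the 44 reached at least 1 scaled read per 1000000 in at least 3 of the 12 libraries and could be tested. A scaled read is a read count multiplied to bring its library to 20000000 aligned reads and rounded up. The libraries came from TPC1, a papillary thyroid carcinoma cell line of wild-type Dicer1 genotype that received no treatment, and from D11, WB1 and TD5, which are Dicer1 (+/-) lines made from TPC1 with a transiently transfected CRISPR-Cas9 plasmid and a guide to exon 11. Each line had 3 libraries of polyadenylated RNA. Each Dicer1 (+/-) line was a single clone, so that the genotype and the history of a clone cannot be told apart. The methods of the study speak of independent repeats of its experiments in general, and no label ties the libraries of a line to separate cultures, so that the p-values below measure the spread between these libraries.

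Collagens are secreted or membrane-bound proteins whose alpha chains wind by threes into a triple helix. Fibrillar types (I, II, III, V, XI, XXIV, XXVII) build fibrils, type IV builds the network of the basement membrane on which thyroid follicles rest, type VI builds beaded filaments, type VII anchors epithelia to the stroma, and types XIII and XVII cross the plasma membrane. Some types, such as VII and XVII, are made of 3 copies of a single chain, while types I, IV, V and VI combine chains from separate genes. Several type IV genes lie head to head in pairs that share a bidirectional promoter. Dicer1 cuts precursors into mature miRNAs, and the miR-29 family is known for target sites in the 3′ UTRs of many collagen mRNAs.

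The mature sequences of the miR-29 family and of let-7a, from RefSeq (GRCh38.p14), are shown because their seeds define the sites counted in the collagen transcripts. Capitals mark the seed, bases 2 to 8.
hsa-miR-29a-3p: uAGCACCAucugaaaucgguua
hsa-miR-29b-3p: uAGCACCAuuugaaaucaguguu
hsa-miR-29c-3p: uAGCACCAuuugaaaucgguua
hsa-let-7a-5p: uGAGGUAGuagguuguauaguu
The 3 members of the miR-29 family share 1 seed. Its complement, TGGTGCT on the transcript strand, occurred in the annotated 3′ UTR of 13 of the 18 tested collagens, against 16.6% of the 12458 tested genes with a 3′ UTR. The median 3′ UTR of the tested collagens measured 1244 bases, against 1344 over those genes. The let-7 site CTACCTC occurred in 5 of the 18, against 11.2%. A match of these letters is a description of the sequence, and miRNA levels were not measured in these libraries.

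The sites of the collagens that differed between lines are shown with the 11 bases on each side, in capitals for the site, from the GENCODE v44 transcripts on GRCh38.
COL5A2, chr2:189032863-189032891, minus strand: tcctttaatgaTGGTGCTaaaattcttcc
COL4A4, chr2:227007226-227007254, minus strand: aagagatgtcaTGGTGCTcattttggact
COL4A1, chr13:110150316-110150344, minus strand: atgtcacaacaTGGTGCTacttcttcttc
COL7A1, chr3:48564312-48564340, minus strand: gtccctcccctTGGTGCTagaggcttgtg
COL16A1, chr1:31652453-31652481, minus strand: gtgggttcctcTGGTGCTgcagccagagc
COL5A1, chr9:134843331-134843359, plus strand: tcaatgaaaatTGGTGCTtattttttaca
COL6A3, chr2:237324591-237324619, minus strand: acctatcagtaTGGTGCTaatgtgtctgt
COL5A1 held 4 such sites, COL4A4 held 3 and COL7A1 held 2, of which the first is shown, and the other 10 collagens with a site held 1 each. Of the 8 collagens called in any comparison below, 7 held a site and COL13A1 held none, while 6 of the 10 others held one.

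Estimated depth was 13740000 to 21020000 reads in TPC1 libraries, 14580000 to 16790000 in D11, 16460000 to 17320000 in WB1 and 12700000 to 15900000 in TD5, so that 3 reads, taken as the floor, correspond to 2.85 to 4.72 scaled reads. DICER1 itself had 1360, 1129 and 1101 scaled reads in TPC1, 977, 1051 and 1093 in D11, 881, 939 and 815 in WB1, while TD5 had 643, 627 and 809. The libraries of all 3 clones were below those of TPC1. The log2 fold change was -0.19 in D11 and -0.43 in WB1 (limma, adjusted p = 0.138 and 0.00404), both under 1.5-fold and not called. It was called in TD5, where it was -0.77 (limma, adjusted p = 9.02e-05). With a correction for GC content the values were -0.42 for D11, not called, and -0.62 for WB1, called. Of 10 thyroid follicular markers, PAX8 had 7248 to 9879 scaled reads while TSHR, NKX2-1 and SLC5A5 were at 0 in all 12 libraries, and FOXE1 had 280 to 316 in TPC1 and 93 to 171 in the clones. KRT8 and KRT18 were abundant, and both were lower in every clone library than in TPC1. KRT8 had 13804 to 16274 scaled reads in TPC1 and 10280 to 12833 in the clones, and KRT18 had 7224 to 7775 and 5237 to 7126. CDH1 and EPCAM did not exceed 5 scaled reads. Of 10 fibroblast markers 7 passed the filter on low values. DCN, a defining fibroblast proteoglycan, was at 0 in all 12 libraries, FAP did not exceed 2 scaled reads, and the summed level of the list, which includes LUM, was 1112 to 1366 in TPC1, 1107 to 1144 in D11, 924 to 1014 in WB1 and 838 to 896 in TD5. Within this list PDPN had 412 to 456 scaled reads in TPC1 and 574 to 599 in D11, and ACTA2 had 146 to 180 and 185 to 212. In the same order, MFAP5 had 189 to 255 and 114 to 123, TAGLN 138 to 174 and 77 to 90, and LUM 63 to 78 and 0. PDGFRB had 112 to 192 in TPC1 and 37 to 56 in WB1, and THY1 had 24 to 51 and 13 to 19. WB1 also lay below TPC1 for TAGLN (48 to 91), MFAP5 (106 to 141) and PDPN (348 to 396). For LUM, WB1 lay above TPC1, at 138 to 212. TD5 lay below TPC1 for TAGLN (32 to 51), PDPN (269 to 345) and LUM (0 to 2). PDPN was thus higher than TPC1 in D11 and lower in WB1 and TD5. The part of the markers that move between lines in the collagen results was not tested. In such bulk libraries, fewer cells that express a gene and less RNA per cell cannot be told apart.

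The tested collagens were led by type IV and type VI chains. On the scale of scaled reads per 1000000 and per kb of transcript, the mean level over the 12 libraries was 69 for COL6A1, 58.5 for COL4A2, 43.9 for COL6A2 and 43 for COL4A1. These 4 genes held 72.2% to 78.6% of all collagen reads. COL18A1, a basement membrane collagen whose C-terminal fragment is endostatin, followed at 13.1, and the next 6 genes, COL13A1, COL8A1, COL27A1, COL17A1, COL5A2 and COL12A1, lay between 4.34 and 6.95. The lowest tested levels were those of COL4A4, at 0.495, and COL6A3, at 0.258.

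All 44 collagens together made 0.154% to 0.173% of the reads of TPC1 libraries, 0.116% to 0.126% in D11, 0.135% to 0.153% in WB1 and 0.145% to 0.16% in TD5. The 3 libraries of D11 were below the libraries of every other line in this share. WB1 lay below TPC1 as well, and TD5 overlapped both.

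Of the 11 fibrillar genes 4 were tested, COL1A1, COL5A1, COL5A2 and COL27A1, and the other 7 were among the 26 collagens that could not be tested. COL22A1, COL9A1 and COL26A1 were at 0 in all libraries, and 16 genes, these 3 included, were above the floor of 3 reads in no library. Among those 16 were COL3A1 and COL2A1, each with at most 3 scaled reads, and COL1A2, which encodes the partner of the alpha 1 chain of type I collagen. COL1A2 did not exceed 2 scaled reads in any library, while COL1A1 had 48 to 97. COL24A1, COL11A2, COL4A6, COL14A1 and COL15A1 were above the floor in all 12 libraries without passing the filter. COL9A3, COL9A2, COL8A2, COL4A3 and COL10A1 were above it in some libraries.

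Each clone was compared with TPC1 across all 16027 tested genes by limma, with Benjamini-Hochberg adjustment over all of them, and a gene was called when its adjusted p was under 0.05 and its change at least 1.5-fold. The 3 comparisons share the TPC1 libraries and are therefore not independent of each other. In D11, 5 collagens were called lower, COL5A2, COL4A4, COL7A1, COL4A1 and COL16A1, where 1.95% of all tested genes were called lower, and 1 was called higher, COL13A1, where 2.89% were called higher. In WB1, 1 collagen was called lower, COL4A4 (all genes, 1.59%), and 1 higher, COL7A1 (all genes, 3.39%). In TD5, 1 collagen was called lower, COL5A1 (all genes, 1.48%), and 1 higher, COL16A1 (all genes, 1.12%). No collagen was called higher in every clone or lower in every clone, where 0.2% of tested genes were called higher and 0.374% lower in all 3. At an unadjusted p under 0.05 (limma), 4 collagens, COL4A1, COL4A2, COL4A4 and COL5A1, had lower values in all 3 clones (all genes, 6.09%) and 0 had higher values (all genes, 5.87%).

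The collagens whose 3 libraries did not overlap those of TPC1 numbered 14 of 18 for D11 (all genes, 50.6%), 9 for WB1 (all genes, 45.3%) and 5 for TD5 (all genes, 26.5%). Without a minimum fold change, 13 of the 18 had an adjusted p under 0.05 in D11 (limma; all genes, 33.3%), 8 in WB1 (all genes, 30.9%) and 4 in TD5 (all genes, 11.9%). With a correction for GC content, COL5A1, COL6A1, COL6A2 and COL4A5 no longer passed in D11 (limma, adjusted p = 0.133, 0.106, 0.112 and 0.0609). COL4A1 no longer passed in WB1 or TD5 (limma, adjusted p = 0.0731 and 0.0902). By contrast, COL6A3 in WB1 and COL4A2 and COL7A1 in TD5 passed only with this correction (limma, adjusted p = 0.0425, 0.0454 and 0.0412). The median log2 fold change of the 18 collagens was -0.31 in D11 and that of all tested genes 0.05. It was -0.03 against 0.06 for WB1, and -0.11 against 0.00 for TD5. In D11, 14 of the 18 had a negative log2 fold change, against 10 in WB1 and 11 in TD5. These signs were not counted over all tested genes.

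**Figure D1:**
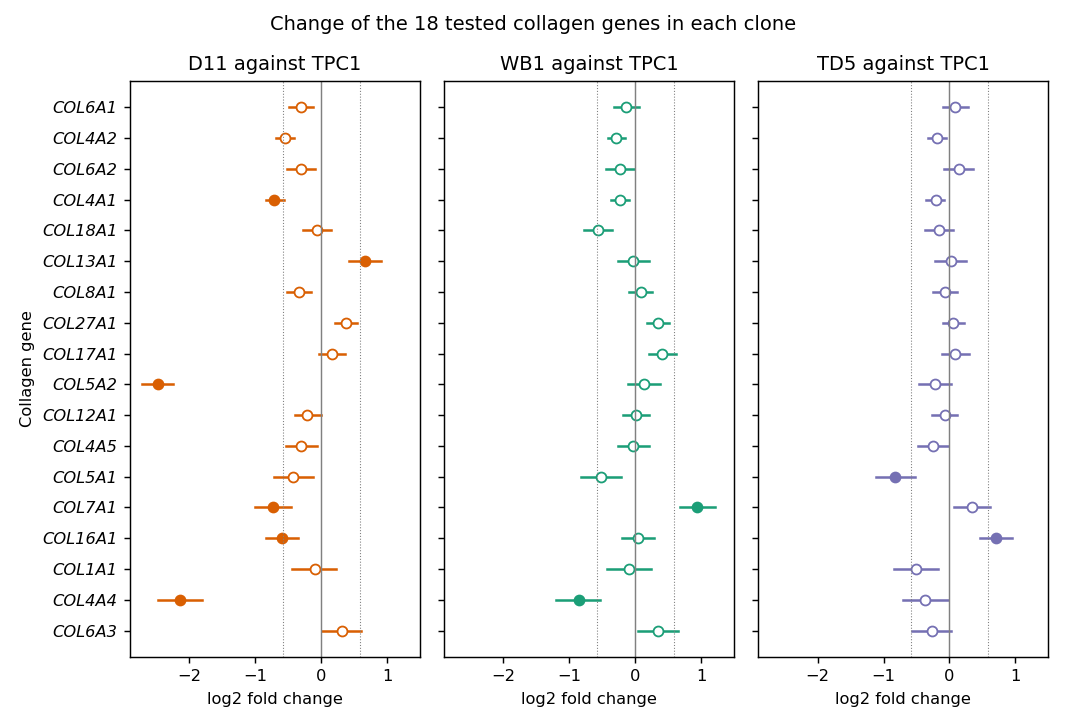
The log2 fold change of the 18 tested collagen genes in each clone against TPC1, with lines for the 95% confidence interval of the limma fit, filled points for called genes and dotted lines at a 1.5-fold change. COL5A2, at -2.48, and COL4A4, at -2.14, in D11 lie farthest from 0, and the other called changes lie between -0.86 and 0.94.

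Type V collagen, a minor fibrillar type that regulates the diameter of type I fibrils, is assembled from chains of COL5A1 and COL5A2, and both genes differed between lines. COL5A2 (ENSG00000204262, chr2:189031898-189225312, minus strand) had 868, 742 and 689 scaled reads in TPC1, 135, 97 and 131 in D11, 746, 923 and 852 in WB1, and TD5 had 695, 617 and 644. Every D11 library was far below every other library, and the libraries of TPC1 overlapped those of WB1 and of TD5. In D11 the mean was 6.33-fold lower than in TPC1, with a log2 fold change of -2.48 ± 0.11 (SE, n = 3 and 3; limma, adjusted p = 1.50e-10). In WB1 it was 0.13, with a 95% interval of -0.11 to 0.37, and in TD5 -0.22, with an interval of -0.46 to 0.02, and neither was called. Within 2 Mb on each side of COL5A2, 24 other genes were tested, and their log2 fold changes in D11 lay between -0.15 and 0.49 with a median of 0.17. Over the same distance, the neighbours of the other collagens called in D11 ranged from -0.59 to 0.81 for COL4A1 (13 genes, 3 of them called), from -0.56 to 0.46 for COL7A1 (89 genes, 0 called), from -0.66 to 0.66 for COL16A1 (57 genes, 3 called) and from -0.98 to 0.69 for COL13A1 (38 genes, 2 called).

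COL5A1 (ENSG00000130635, chr9:134641803-134844843, plus strand) had 629, 477 and 596 scaled reads in TPC1, 448, 415 and 388 in D11, 294, 415 and 473 in WB1, while TD5 had 290, 287 and 354. All libraries of the 3 clones were below the lowest TPC1 library, and TD5 was the lowest on average. The log2 fold change was -0.83 ± 0.14 in TD5 (SE; limma, adjusted p = 0.00109), where it was called. It was -0.42 in D11 and -0.52 in WB1, with adjusted p of 0.0307 and 0.011 and a change under 1.5-fold. With a correction for GC content, the value in D11 was -0.28 (limma, adjusted p = 0.133). The ratio of COL5A2 to COL5A1, both per length, was 1.43 to 1.92 in TPC1, 0.289 to 0.417 in D11, 2.23 to 3.14 in WB1 and 2.25 to 2.96 in TD5. D11 was thus the line in which the COL5A1 transcript exceeded that of COL5A2, and in WB1 and TD5 the ratio lay above all TPC1 values. The other fibrillar genes tested were COL27A1, which is found in cartilage, and COL1A1. COL27A1 had means of 664 scaled reads in TPC1, 867 in D11, 848 in WB1 and 691 in TD5. COL1A1 had means of 84.3, 77.7, 78.7 and 53.3 in the same order, and neither gene was called in any comparison. The D11 and WB1 libraries of COL27A1 lay above those of TPC1, at log2 fold changes of 0.38 and 0.35. Both changes were under 1.5-fold (limma, adjusted p = 0.00212 and 0.00353). COL1A1 in TD5 had a log2 fold change of -0.51 (limma, adjusted p = 0.0455), under the 1.5-fold limit on that scale, though its mean was 1.58-fold lower. It was called with 0.1 in place of 1 added before the logarithm, at -0.64, and without replicate 2 of TPC1, at -0.60.

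The type IV genes form 3 head-to-head pairs, COL4A1 with COL4A2, COL4A3 with COL4A4 and COL4A5 with COL4A6. The annotated start sites of COL4A1 and COL4A2 on chromosome 13 lie 127 bases apart, and those of COL4A4 and COL4A3 on chromosome 2 lie 419 bases apart. The promoter windows, 250 bases before to 50 after a start, are shown from RefSeq (GRCh38.p14) because COL4A1 and COL4A4 were called in D11. The nearest starts of COL4A5, which was not called, and COL4A6, which could not be tested, lie 380 bases apart. The COL4A2 window contains both starts of its pair. Capitals mark the CCAAT box (CCAAT or ATTGG) and the GC box (GGGCGG or CCGCCC), searched on both strands.
COL4A2, chr13:110307034-110307333, plus strand: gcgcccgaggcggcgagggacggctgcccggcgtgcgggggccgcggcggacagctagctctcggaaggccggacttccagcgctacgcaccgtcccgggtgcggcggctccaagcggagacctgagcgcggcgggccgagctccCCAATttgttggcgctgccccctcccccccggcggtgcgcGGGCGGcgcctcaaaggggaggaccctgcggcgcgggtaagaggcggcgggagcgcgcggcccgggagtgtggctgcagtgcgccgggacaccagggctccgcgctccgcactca
COL4A4, chr2:227164156-227164455, minus strand: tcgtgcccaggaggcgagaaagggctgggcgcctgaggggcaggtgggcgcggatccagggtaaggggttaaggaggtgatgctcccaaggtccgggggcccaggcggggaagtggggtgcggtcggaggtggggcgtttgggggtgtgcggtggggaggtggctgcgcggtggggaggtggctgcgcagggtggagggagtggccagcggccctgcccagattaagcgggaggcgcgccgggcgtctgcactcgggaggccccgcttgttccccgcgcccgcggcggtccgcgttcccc
COL4A3, chr2:227164374-227164673, plus strand: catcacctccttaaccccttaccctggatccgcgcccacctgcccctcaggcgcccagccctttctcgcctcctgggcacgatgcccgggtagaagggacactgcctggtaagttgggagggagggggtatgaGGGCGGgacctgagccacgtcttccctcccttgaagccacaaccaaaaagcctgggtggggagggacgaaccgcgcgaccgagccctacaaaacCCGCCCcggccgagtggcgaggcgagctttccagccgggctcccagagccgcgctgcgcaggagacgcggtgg
The COL4A2 window held 1 CCAAT box and 1 GC box, that of COL4A3 held 2 GC boxes and that of COL4A4 held neither. A CCAAT box occurred in 34.6% and a GC box in 44.9% of the 34796 promoters of the RefSeq table, and the TATA letters TATAAA, in 11.6% of them, occurred in none of these 3 windows. Promoter windows were found for 14 of the 18 tested collagens.

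COL4A1 and COL4A2 encode the chains of the common type IV network. COL4A1 (ENSG00000187498, chr13:110148963-110307157) had 6767, 6418 and 7155 scaled reads in TPC1, 4103, 3817 and 4521 in D11, 5910, 5626 and 5739 in WB1, and TD5 had 5559, 6022 and 5975. COL4A2 (ENSG00000134871, chr13:110305812-110513209) had 8650, 8402 and 9741 in TPC1, 6342, 5751 and 6208 in D11, 7107, 7083 and 7748 in WB1, while TD5 had 7441, 8042 and 8032. For both genes, every TPC1 library was above every clone library, and every D11 library was below the libraries of the other lines. In D11, COL4A1 was 1.63-fold lower, with a log2 fold change of -0.71 ± 0.06 (SE; limma, adjusted p = 8.32e-07), and was called. COL4A2 had a log2 fold change of -0.55 ± 0.06 (limma, adjusted p = 1.73e-05) and missed the 1.5-fold limit at 1.46-fold. In WB1 the log2 fold changes were -0.23 and -0.29 (limma, adjusted p = 0.0116 and 0.00364), and in TD5 -0.21 and -0.19 (adjusted p = 0.04 and 0.069). With a correction for GC content, COL4A1 was at -0.16 in both WB1 and TD5 (limma, adjusted p = 0.0731 and 0.0902). COL4A2 was then at -0.14 in WB1 and -0.16 in TD5 (limma, adjusted p = 0.0477 and 0.0454). The ratio of COL4A1 to COL4A2 per length was 0.724 to 0.771 in TPC1 and 0.638 to 0.718 in D11. COL4A1 and COL4A2 overlap by 1346 bases on opposite strands, and COL4A2 also overlaps the antisense genes COL4A2-AS1, with 184 to 302 scaled reads, and COL4A2-AS2, with 111 to 226. Whether strand was used in the counting is not given in the sources used here, so that reads in these overlaps cannot be assigned with certainty.

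COL4A3 and COL4A4 encode chains of the type IV network of kidney, lung and other specialised basement membranes. COL4A4 (ENSG00000081052, chr2:227002714-227164453, minus strand) had 189, 136 and 175 scaled reads in TPC1, 13, 23 and 32 in D11, 73, 88 and 85 in WB1, and TD5 had 106, 123 and 145. D11 was lowest, then WB1, and these 2 lines overlapped neither each other nor TPC1, while TD5 overlapped TPC1. The mean was 7.35-fold lower in D11, with a log2 fold change of -2.14 ± 0.16 (SE; limma, adjusted p = 7.19e-08). It was 2.03-fold lower in WB1, with a log2 fold change of -0.86 ± 0.16 (limma, adjusted p = 0.00104). In TD5 the log2 fold change was -0.37, with a 95% interval of -0.70 to -0.03, and was not called. COL4A3, which did not pass the filter, had 16, 19 and 9 scaled reads in TPC1, 0, 2 and 0 in D11, 2, 11 and 6 in WB1, while TD5 had 7, 10 and 11. In estimated reads, D11 had 1 and TPC1 had 38, a depth-corrected ratio of 0.0286 with an exact interval of 0.000705 to 0.169 that covers counting error only. Within 2 Mb of COL4A4, 6 other genes outside the collagen family were tested, and their log2 fold changes in D11 lay between -0.34 and 0.21 with a median of 0.03. COL4A5, the partner of COL4A6 on the X chromosome, had means of 485 scaled reads in TPC1, 388 in D11, 475 in WB1 and 408 in TD5. COL4A6 did not pass the filter. It had 8 to 11 scaled reads in TPC1, 7 to 10 in D11, 16 to 20 in WB1 and 6 to 16 in TD5.

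COL7A1 and COL16A1 were called in opposite directions in different clones. COL7A1 (ENSG00000114270, chr3:48564073-48595329) encodes the anchoring fibril chain that fastens the basement membrane to the tissue below. It had 245, 188 and 292 scaled reads in TPC1, 146, 134 and 127 in D11, 522, 471 and 437 in WB1, and TD5 had 276, 343 and 304. D11 lay below all other libraries and WB1 above them, while TD5 overlapped TPC1. The log2 fold change was -0.73 ± 0.13 in D11 (SE; limma, adjusted p = 0.000684) and 0.94 ± 0.13 in WB1 (adjusted p = 8.16e-05). In TD5 it was 0.34, with a 95% interval of 0.07 to 0.61, and was not called. With a correction for GC content, the value in D11 was -0.58 and was no longer called.

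COL16A1 (ENSG00000084636, chr1:31652263-31704319), a collagen with interrupted helices that associates with fibrils, had 140, 126 and 171 scaled reads in TPC1, 84, 104 and 81 in D11, 155, 138 and 156 in WB1, while TD5 had 251, 252 and 242. D11 lay below and TD5 above all other libraries, and WB1 overlapped TPC1. The log2 fold change was 0.70 ± 0.12 in TD5 (SE; limma, adjusted p = 0.000876) and -0.59 ± 0.12 in D11 (adjusted p = 0.0016). The call in D11 lay at the 1.5-fold limit and was lost without replicate 3 of TPC1, at -0.48, without replicate 1 of D11, at -0.56, and without replicate 3 of D11, at -0.54. The opposite-strand gene PEF1-AS1, which overlaps COL16A1 over 7900 bases, had 43 to 78 scaled reads.

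COL13A1 (ENSG00000197467, chr10:69801880-69964275) encodes a transmembrane collagen of adhesion sites and was the collagen called higher in D11. It had 425, 368 and 350 scaled reads in TPC1, 590, 648 and 597 in D11, 301, 410 and 410 in WB1, and TD5 had 349, 385 and 422. The libraries of D11 were above all others, and the other 3 lines overlapped. In D11 the mean was 1.61-fold higher, with a log2 fold change of 0.66 ± 0.11 (SE; limma, adjusted p = 0.000559). COL17A1, the other transmembrane collagen tested and a hemidesmosome protein, had means of 486 scaled reads in TPC1, 542 in D11, 649 in WB1 and 517 in TD5. Its log2 fold change in WB1 was 0.41 (limma, adjusted p = 0.00478), a change under 1.5-fold.

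COL6A1 was the most abundant collagen per length, and no type VI chain was called in a clone against TPC1. COL6A1 had 5817, 5820 and 6781 scaled reads in TPC1, 5378, 4634 and 4876 in D11, 4930, 5421 and 6362 in WB1, while TD5 had 6015, 6476 and 7145. D11 lay below TPC1, and the other clones overlapped it. The log2 fold changes in D11 were -0.30 for COL6A1 and -0.31 for COL6A2 (limma, adjusted p = 0.0166 and 0.0267), both under 1.5-fold. With a correction for GC content both were -0.16 in D11 (limma, adjusted p = 0.106 and 0.112). In TD5 they were 0.09, with a 95% interval of -0.10 to 0.28, and 0.14, with an interval of -0.08 to 0.35. COL6A3, the large chain of the type VI trimer, had 52, 53 and 40 scaled reads in TPC1, 53, 85 and 59 in D11, 74, 61 and 65 in WB1, and TD5 had 38, 40 and 32. Its level per length was 0.00179 to 0.00732 of that of COL6A1 in the 12 libraries.

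The remaining tested collagens were called in no comparison. COL18A1 came closest, with 1578, 1488 and 1770 scaled reads in TPC1 and 916, 1072 and 1276 in WB1, a log2 fold change of -0.57 ± 0.10 (SE; limma, adjusted p = 0.000611) that missed the limit at 1.48-fold. Without replicate 2 of TPC1 or without replicate 3 of WB1, COL18A1 and COL5A1 were called too, and the count in WB1 rose from 2 to 4. COL18A1 overlaps SLC19A1 on the opposite strand, a gene with 1206 to 1895 scaled reads. COL8A1, a short-chain collagen of vessel walls and the cornea, had means of 664 scaled reads in TPC1, 522 in D11, 704 in WB1 and 635 in TD5. COL12A1, a fibril-associated collagen, had means of 1064, 917, 1079 and 1011 in the same order. The D11 libraries of COL8A1 lay below those of TPC1, at a log2 fold change of -0.34 (limma, adjusted p = 0.00769), under 1.5-fold.

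The clones were also compared with each other, since a change called in 1 clone and not in another does not show that the clones differ. Against D11, the same 4 collagens, COL5A2, COL4A4, COL7A1 and COL16A1, were called higher in both WB1 (all genes, 1.97%) and TD5 (all genes, 1.67%), and COL13A1 was called lower in both WB1 (all genes, 0.88%) and TD5 (all genes, 2.32%). These comparisons share the D11 libraries. Irrespective of fold, 9 collagens in WB1 (all genes, 8.07%) and 13 in TD5 (all genes, 23.2%) had an adjusted p under 0.05 against D11 (limma), and 9 differed so between TD5 and WB1 (all genes, 13.6%). COL13A1 lost its call without replicate 1 of TD5, at -0.58, and without replicate 1 of WB1, at -0.55, and COL16A1 lost its call in WB1 without replicate 3 of D11, at 0.58. COL5A2 differed from D11 by log2 fold changes of 2.62 in WB1 and 2.26 in TD5 (limma, adjusted p = 7.50e-11 and 3.28e-10). Between TD5 and WB1, COL16A1 was called higher in TD5 (all genes, 0.611%), and COL6A3 and COL7A1 were called lower (all genes, 1.72%). Each of these 3 calls was lost when 4 scaled reads per 1000000 were added before the logarithm in place of 1. COL7A1 was also lost without replicate 1 of WB1, at -0.54, and without replicate 1 of TD5, at -0.53, and COL6A3 without replicate 1 of WB1 or replicate 3 of TD5, at -0.55 in both.

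Genes that act on collagens were read from lists of 80 genes, of which 79 were in the table and 66 were tested. Of these, 2 were called higher and 7 lower in D11, where 2.89% and 1.95% of all tested genes were. WB1 had 5 higher and 5 lower, against 3.39% and 1.59% of all genes, and TD5 had 2 higher and 4 lower, against 1.12% and 1.48%. For the listed genes the clones were not compared with each other. Of the 23 tested genes for folding and modification of chains, P3H2, a prolyl 3-hydroxylase that acts on type IV collagen, had a mean of 5244 scaled reads in TPC1, 3248 in D11 and 3086 in WB1. It was called lower in both, by -0.69 in D11 and -0.77 in WB1 on the log2 scale. SERPINH1, the collagen chaperone HSP47, was called lower in D11, at -0.67. Its libraries lay below TPC1 (2587 to 3072 scaled reads) in every clone. They had 1531 to 1937 in D11, 1725 to 2042 in WB1 and 1920 to 2083 in TD5. P4HA1, a subunit of prolyl 4-hydroxylase, was called higher in TD5, at 0.60. The WB1 libraries of P4HA1 (1341 to 1727 scaled reads) also lay above TPC1 (1045 to 1080), without a call. The other 20 were not called in any clone.

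Of the 13 tested genes for propeptide cleavage and crosslinking, LOXL4, a lysyl oxidase that crosslinks collagen, was called in all 3 clones. It had 258, 209 and 243 scaled reads in TPC1, 64, 59 and 58 in D11, 92, 105 and 119 in WB1, while TD5 had 76, 116 and 81, and the clones lay below TPC1 with no overlap. The log2 fold changes were -1.67, -1.04 and -1.22 (limma, adjusted p = 1.96e-07, 5.41e-05 and 1.95e-05). The other 12 were not called.

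Of the 9 tested receptors, the integrin chain ITGA2, which binds collagen together with integrin beta 1, had 864, 1097 and 789 scaled reads in TPC1, 1637, 1537 and 1541 in D11, 2729, 2349 and 2684 in WB1, and TD5 had 1399, 894 and 1487. The libraries of WB1 lay highest, those of D11 lay above TPC1 and those of TD5 overlapped it. ITGA2 was called higher in D11, at 0.78, and in WB1, at 1.49. ITGA11, a receptor chain for fibrillar collagen, was called higher in D11, at 0.71. DDR2, a collagen-binding tyrosine kinase, and ANTXR2 were called higher in WB1, at 0.73 and 0.76, and ANTXR1 was called lower in TD5, at -0.59. Without a call, D11 also lay above TPC1 for DDR2 (44 to 72 against 31 to 37 scaled reads) and ANTXR2 (721 to 807 against 453 to 603). WB1 likewise lay below TPC1 for ANTXR1 (1670 to 1698 against 2204 to 2430), without a call.

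Of the 10 tested proteoglycans and glycoproteins of the matrix, BGN, the small proteoglycan biglycan, was called lower in all 3 clones. It had 239, 165 and 297 scaled reads in TPC1, 22, 26 and 21 in D11, 72, 67 and 96 in WB1, while TD5 had 86, 124 and 114. D11 lay lowest, and no clone overlapped TPC1, at log2 fold changes of -2.53, -1.34 and -0.96. LUM, which encodes the proteoglycan lumican on collagen fibrils, had 78, 73 and 63 scaled reads in TPC1, 138, 212 and 148 in WB1, 2, 0 and 0 in TD5 and 0 in the 3 libraries of D11. Set against the floor of 3 reads per library, LUM was at least 18.9-fold lower in D11. On the log2 scale it was called lower in D11 and TD5, at -2.19 and -2.14, and higher in WB1, at 1.01. NID2, a nidogen that links type IV collagen to laminin, was called lower in D11, at -0.84. Over the 10 genes, 3 were called lower in D11 (all genes, 1.95%), 2 higher and 2 lower in WB1 (3.39% and 1.59%), and 1 higher and 2 lower in TD5 (1.12% and 1.48%). TNC, tenascin C, was called higher in WB1 and TD5, at 1.28 and 0.87, and THBS1, thrombospondin 1, was called lower in WB1, at -0.86. THBS1 had 29263 to 35354 scaled reads in TPC1, 22166 to 24119 in D11, 13809 to 22145 in WB1 and 18130 to 25355 in TD5. Every clone library of THBS1 thus lay below those of TPC1.

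Of the 11 tested transcription factors known to act on collagen genes, CREB3L1, a factor of the endoplasmic reticulum that activates COL1A1, was called. It had 498, 517 and 494 scaled reads in TPC1, 223, 173 and 219 in D11, 239, 316 and 395 in WB1, and TD5 had 541, 457 and 525. D11 and WB1 lay below TPC1, at log2 fold changes of -1.22 and -0.66 (limma, adjusted p = 9.75e-06 and 0.00203), and TD5 overlapped it.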

How the data were processed

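A stranded mRNA kit was used for the 12 libraries, of which TPC1, D11, WB1 and TD5 had 3 each. Per the study's methods and the submitters' processing notes, reads were aligned with STAR (2.5.3a) to GRCh38 and counted with HTSeq (0.9.1) on genes of Ensembl release 90. The deposited values are a score: counts that the authors scaled to 20000000 aligned reads per library and rounded up to whole numbers. Depth was therefore estimated from the whole numbers that are missing among low values, and the main fit used no count model. Replicate 1 of TPC1, estimated at 21020000 reads, was the exception. Its depth was estimated by likelihood, from whole numbers that stand for 2 read counts. The authors' own comparison used a quasi-likelihood count test.

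Values were divided by the library sum, expressed per 1000000, and log2-transformed after adding 1. A gene was tested if 3 or more libraries reached 1 per 1000000 (16027 of 58302). The test was limma (3.58.1, R 4.3.3), fitted to the 12 libraries together with a trend of the variance on the mean, and p-values were adjusted by Benjamini-Hochberg over all tested genes. Fold changes on this scale understate the change of low genes, while fold values given as ratios of means were taken on scaled reads. Calls needed both an adjusted p under 0.05 and a 1.5-fold change or more on the log2 scale of the fit. The fit was tested on simulated data with a spread set in advance and changes in D11 alone, all larger than 1.5-fold. That simulation does not bear on calls near the 1.5-fold limit. An exact permutation test of 3 against 3 libraries cannot go below p = 0.1 and was not used. Levels were compared between genes only after division by the length of the main transcript (GENCODE v44, GRCh38), whose identifiers matched all 44 collagens. Of the listed genes, MIA2 was not found under that name.

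The members, the gene lists and the markers were chosen with earlier results of these data known. The text names every collagen called in at least 1 of the 6 comparisons between lines, the 10 collagens with the highest level per length, the partner chains of these, DICER1, and of each pathway list up to 5 genes called against TPC1. Other collagens are named by their level or position relative to the filter and were chosen after their values were seen.

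Replicate numbers are shared between lines in the labels, which do not say what a number stands for. Deviations from the line means correlated between same-numbered D11 and TD5 libraries (0.107, 0.172 and 0.348), and in no other pair of lines were all 3 correlations above 0.1. Alternatives were the filter, the added value (0.1 or 4 in place of 1), median-of-ratios scaling, voom weights, a fit of the compared lines alone, a replicate block, corrections for GC content and length, no minimum fold change and leaving out each library. The fit with voom weights took the scaled values as if they were counts.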

Additional observations from a re-analysis of the deposited data

Results flagged for a closer look

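The values in this section are differences between 2 clones in the same contrast with TPC1, tested directly by limma with adjustment over all genes. They share the libraries of the clones compared.

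Against D11, COL5A2 was higher by 2.26 in TD5 and 2.62 in WB1 on the log2 scale, and COL4A4 by 1.78 and 1.28. COL7A1 was higher by 1.07 in TD5 and 1.67 in WB1, and COL16A1 by 1.30 and 0.63. COL13A1 differed by -0.64 in TD5 and -0.69 in WB1 and was highest in D11.

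Between TD5 and WB1, the log2 difference was 0.66 for COL16A1, -0.61 for COL6A3 and -0.60 for COL7A1. Of these 3 differences, that of COL6A3 was seen in a gene with no call in either clone against TPC1, at 0.35 in WB1 (95% interval 0.04 to 0.65) and -0.27 in TD5 (-0.57 to 0.03). TD5 also lay below D11 for COL6A3, at -0.58 (limma, adjusted p = 0.00812), just under the 1.5-fold limit. That difference from D11 was called with 0.1 added before the logarithm, with voom weights and with a GC correction. The cause of these differences was not tested.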

How the results depend on the processing

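Without a minimum fold change, the called collagens against TPC1 numbered 13 (D11), 8 (WB1) and 4 (TD5), 13 for TD5 and 9 for WB1 against D11, and 9 for TD5 against WB1, and the called pathway genes 34, 37 and 20 of 66, where 33.3%, 30.9% and 11.9% of all tested genes passed against TPC1. With a GC correction or with 4 added before the logarithm, D11 had 4 called collagens against TPC1 in place of 6. With a length correction, with or without a replicate block, WB1 had 4 called collagens in place of 2. With 4 added before the logarithm, TD5 had 1 against TPC1 and 0 against WB1, and with median-of-ratios scaling TD5 had 1 against WB1. The cause was not tested. Leaving out 1 library gave 5 to 7 called collagens against TPC1 (D11), 2 to 4 (WB1) and 2 to 3 (TD5), 5 to 6 for TD5 and 4 to 6 for WB1 against D11, 2 to 3 for TD5 against WB1, and 8 to 11, 10 to 12 and 5 to 8 called pathway genes.

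The replicate block alone left the collagen counts at 6 (D11), 2 (WB1) and 2 (TD5) against TPC1, and at 5, 5 and 3 between clones, and the pathway counts at 9, 10 and 6. COL5A2, COL4A4, COL4A1 and COL13A1 in D11, COL4A4 and COL7A1 in WB1 and COL5A1 in TD5 remained called in the same direction under all 25 alternatives. COL5A2 in D11 ranged from -2.67 to -2.07 and COL4A4 from -2.93 to -1.26. COL16A1 lost its call with 4 added in D11, at -0.41, and in TD5, at 0.55, and in D11 with a GC correction, at -0.44, while COL7A1 in D11 lost it with 4 added, at -0.56. Between TD5 and WB1, COL7A1 and COL6A3 lost their calls with median-of-ratios scaling, at -0.55 and -0.57, and with a length correction, both at -0.46, and COL16A1 with a GC correction, at 0.54. COL13A1 in TD5 and COL16A1 in WB1 against D11 were lost with 4 added, at -0.57 and 0.44. COL4A2 in D11 was called with median-of-ratios scaling, at -0.61, with a length correction, at -0.68, and without replicate 2 of TPC1, at -0.59.

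Collagens under the floor of 3 reads could not be compared at this depth, and lines of 1 clone each do not separate genotype from clone.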
